A study of Homo sapiens with 9 samples.

Results

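The nuclear-encoded subunits of oxidative phosphorylation were taken as a family with earlier results of these data known, and its members were found by gene symbol, a rule that uses no measured value. Symbols beginning NDUFA, NDUFB, NDUFC, NDUFS, NDUFV or NDUFAB with a digit, the SDHA to SDHD genes, and symbols beginning UQCR, COX4 to COX8 or ATP5 gave 88 of the 18143 genes listed. Of these, 37 belong to complex I, 4 to complex II, 9 to complex III, 16 to complex IV and 18 to complex V, and 4 lie outside the complexes. The 4 are NDUFA4L2, a paralog of NDUFA4, ATP5IF1, an inhibitor of the ATP synthase, and the read-through genes NDUFC2-KCTD14 and ATP5MF-PTCD1. RNA was sequenced from A549, a human lung adenocarcinoma cell line, 48 h after transfection. The 3 groups received a scramble siRNA (Scramble), SiREV1#1 or SiREV1#2, both of which target REV1, and each group had 3 replicates. REV1 is a DNA polymerase of translesion synthesis, by which replication passes damaged bases. All cells were of the same line and all were transfected, so no untransfected library was compared. Levels are FPKM, fragments per transcript length and library size, as the authors deposited them.

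Oxidative phosphorylation passes electrons from NADH through complex I, or from succinate through complex II, to ubiquinone, then through complex III and cytochrome c to complex IV, which reduces oxygen. Complexes I, III and IV pump protons across the inner mitochondrial membrane, and complex V, the ATP synthase, uses the gradient to make ATP. Complexes I, III, IV and V combine subunits encoded in mitochondrial DNA with nuclear-encoded ones that are imported, while complex II is nuclear-encoded throughout. The subunits encoded in mitochondrial DNA were not analysed here.

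REV1 was measured at 7.23, 7.9 and 8.44 FPKM in Scramble replicates 1, 2 and 3, at 2.6, 2.92 and 3.36 after SiREV1#1 and at 3.62, 3.36 and 3.18 after SiREV1#2, so that every library of both siRNAs lay below every Scramble library. Total expected counts were between 13059082 (SiREV1#1 replicate 1) and 20166451. All 8 markers of A549 and epithelial cells exceeded 1 FPKM in some library, and their sum was 6908.94 to 18809.06 FPKM. EPCAM, at 0.73 to 2.38, and KRT19, at 0.1 to 1.34, were low. Sums of other markers were 0.61 to 3.24 FPKM for lung alveolar cells, 0.5 to 1.72 for fibroblasts, 0.08 to 0.14 for endothelial cells, 0.07 to 0.42 for muscle and 18.52 to 82.28 for blood and immune cells, of which CD68 gave 18.29 to 81.61. In bulk RNA, fewer cells with a transcript and less of it per cell cannot be told apart. The study's methods state independent repeats of its in vitro experiments, and the labels do not say how the replicate numbers relate to cultures, so p-values measure the spread between these libraries, which may be technical in part.

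Most subunit genes were abundant transcripts in these cells. Of the 88, 81 had a mean above 1 FPKM over the 9 libraries and were tested. Their median level was 111 FPKM, against 11.5 for all 11429 genes that passed this filter, and their median percentile was 94.3. Complex IV had the highest median, 383 FPKM over 12 genes, from NDUFA4 at 95.5 to COX6B1 at 741. The median was 197 FPKM over the 17 genes of complex V, from the peripheral stalk subunit ATP5PB at 63.1 to the catalytic beta subunit ATP5F1B at 727. It was 113 FPKM over the 8 genes of complex III, from UQCRB at 46.2 to the Rieske iron-sulfur protein UQCRFS1 at 373, and 84.7 over the 37 genes of complex I, from NDUFV3 at 20.1 to NDUFB9 at 233. Complex II had the lowest median, 64.0 FPKM over 4 genes, from the membrane anchor SDHC at 47.8 to the iron-sulfur subunit SDHB at 110. FPKM is a level per transcript length. The lengths implied by counts and FPKM had a median of 781 bases over the tested members and 2928 over all genes tested. Whether FPKM is comparable between genes of such unlike length was not tested.

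**Figure D1:**
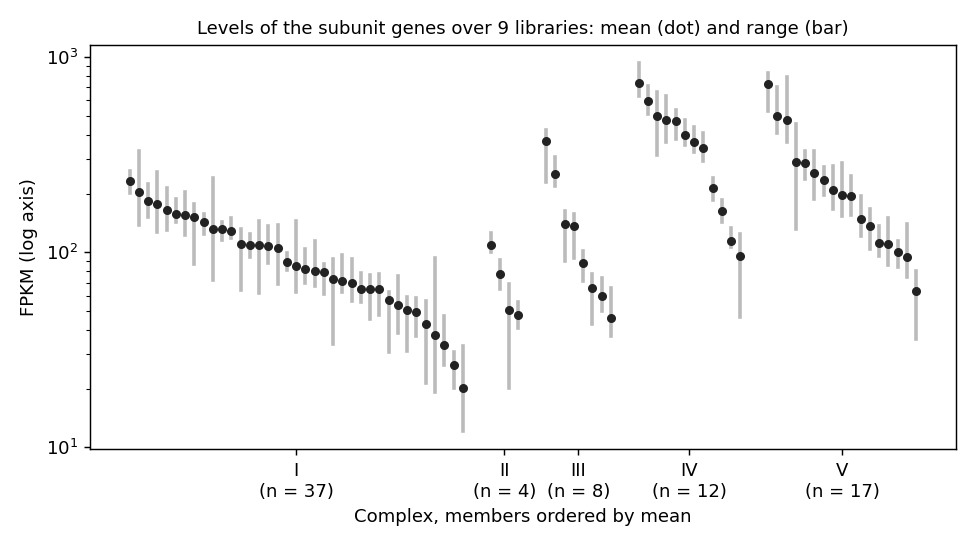
FPKM on a log axis for the tested members of complexes I to V, ordered by mean within each complex, with a dot for the mean and a bar for the range over 9 libraries. The median of complex IV, 383 FPKM, is the highest and that of complex II, 64.0, the lowest.

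In each pair of a common subunit and a tissue-restricted or paralogous form measured here, the common form was the abundant one in A549 cells. COX6A2 and COX7B2, the restricted forms of COX6A1 and COX7B, were not analysed here. COX4I1, which stabilises the core of complex IV, ranged from 381.77 to 537.96 FPKM, and its hypoxia and lung-associated isoform COX4I2 from 0 to 0.08. COX7A2 was at 185.88 to 240.21 FPKM and its heart and muscle form COX7A1 at 0 to 0.15, and COX8A was at 356.07 to 473.41 and COX8C at 0 to 0.1. COX6B1 was at 633.15 to 932.57 FPKM and the testis form COX6B2 at 0.04 to 2.53, with 0.82, 1.96 and 2.53 in the SiREV1#2 libraries. NDUFA4 was at 46.66 to 124.3 FPKM and NDUFA4L2 at 0.33 to 2.09, and UQCRH was at 218.52 to 307.65 and UQCRHL at 0.05 to 1.52. The remaining members below the filter were ATP5MGL, at 0 to 0.49, and NDUFC2-KCTD14, at 0.08 to 0.61. These 7 members, UQCRHL, COX4I2, COX6B2, COX7A1, COX8C, ATP5MGL and NDUFC2-KCTD14, entered no test in the fits of the filtered genes.

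Summed over their members, complexes I, II, IV and V gave overlapping values in the 3 groups. For complex III all SiREV1#2 libraries (1245 ± 60.3 FPKM, SD, n = 3) exceeded all Scramble libraries (1127 ± 49.7), and the SiREV1#1 libraries (1116 ± 191) overlapped both. The sum of complex II was 284.37, 294.94 and 285.25 FPKM in the Scramble libraries, 230.1, 298.83 and 293.5 after SiREV1#1, and 299.62, 283.9 and 297.6 after SiREV1#2. The group means were 288 ± 5.87 (SD, n = 3), 274 ± 38.2 and 294 ± 8.55, and SiREV1#1 replicate 1 was the lowest library. Complex I summed to 3999 ± 457 FPKM (SD, n = 3) in the libraries numbered 1 and to 3542 ± 268 (n = 6) in the others, and complex V to 4613 ± 430 and 3892 ± 220. For complex V, all 3 libraries numbered 1, at 4262.28 to 5092.94, exceeded all 6 others, at 3632.58 to 4192.27, while for complex I the ranges overlapped. Complex III was lowest in SiREV1#1 replicate 1, at 896.14 FPKM, and highest in SiREV1#2 replicate 1, at 1313.19. The 5 complexes together took 2.43% of all FPKM in SiREV1#1 replicate 1 and 3.06% in SiREV1#2 replicate 1, the lowest and the highest share. These sums carry no test.

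**Figure D2:**
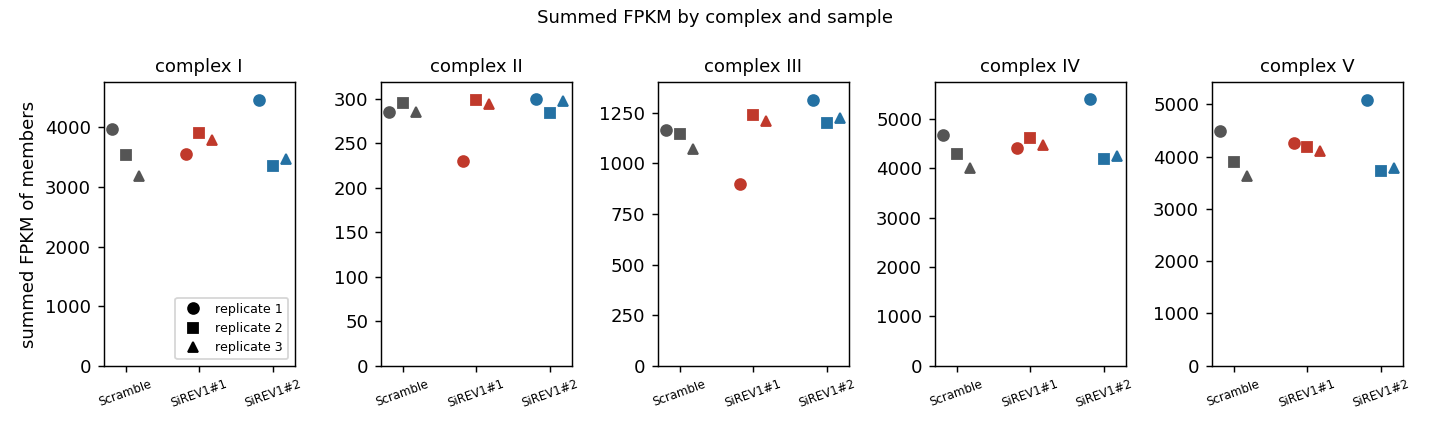
Summed FPKM of the members of complexes I to V in each library, by group, with replicate numbers as symbols and a vertical axis from 0. Replicate 1 of SiREV1#2 is the highest library in all 5 complexes, and replicate 1 of SiREV1#1 is the lowest for complexes II and III.

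The first comparison was SiREV1#1 against Scramble. Most subunit genes did not pass the test, and 1 did, SDHD, which fell. With limma on log2(FPKM + 1) over 9 libraries and a Benjamini-Hochberg adjusted p under 0.05, 1 of 81 members was called, against 1.36% of all genes tested. With the replicate number as a block, 6 of 81 members were called (3 lower and 3 higher), against 19.7% of all genes. The median log2 difference of the members was 0.06, and that of all genes was −0.07.

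SDHD, which anchors complex II in the inner membrane and with SDHC forms its ubiquinone site, lies on chr11:112086773-112120013, plus strand (GRCh38, GENCODE 29). Its FPKM was 54.71, 62.14 and 61.72 in Scramble replicates 1, 2 and 3 (59.5 ± 4.17, SD, n = 3), 20.27, 32.26 and 32.64 after SiREV1#1 (28.4 ± 7.03) and 61.49, 63.57 and 68.54 after SiREV1#2 (64.5 ± 3.62). All 3 SiREV1#1 libraries lay below all 6 others, and the SiREV1#1 level was 0.370, 0.519 and 0.529 of the Scramble level within replicates 1, 2 and 3. The log2 difference was −1.07 (SE 0.20, adjusted p = 0.0475), and −1.07 (SE 0.13, adjusted p = 0.00178) with the replicate block. The call was lost without the filter on low values (adjusted p = 0.0606), in edgeR on counts (0.118), with only the 2 groups fitted (0.138) and in 7 of 9 fits that left out 1 library, where adjusted p reached 0.232 without Scramble replicate 3. It held without SiREV1#1 replicate 1 (−0.85, adjusted p = 0.0215) and without SiREV1#2 replicate 1 (0.0463). SDHD shares 13.1% of its 50-base words with other genes, most of them with AP002884.3 on the same strand, so its counts are uncertain to that extent. TIMM8B overlaps it on the opposite strand, at 29.4, 30.23 and 24.95 FPKM in Scramble and 20.63, 34.96 and 34.54 after SiREV1#1, and strandedness is not given in the sources used here.

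Complex II's other subunits did not pass. SDHA, the flavoprotein that oxidises succinate, was at 76.7, 79.69 and 77.59 FPKM in Scramble and 64.57, 91.54 and 89.85 after SiREV1#1 (log2 difference 0.05). SDHB, which passes the electrons on, was at 106.41, 110.63 and 104.96 and at 100.68, 125.26 and 122.97 (0.11). SDHC, the partner of SDHD in the membrane, was at 46.55, 42.48 and 40.98 and at 44.58, 49.77 and 48.04 (0.13). In each of these 3 genes SiREV1#1 lay below Scramble in replicate 1 and above it in replicates 2 and 3.

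In complex V, ATP5F1E and ATP5PB had the lowest differences. ATP5F1E, the epsilon subunit of the rotating central stalk (chr20:59025467-59032382, minus strand), was at 371.68, 333.71 and 310.77 FPKM in Scramble, 132.37, 202.76 and 180.34 after SiREV1#1 and 455.56, 316.83 and 311.9 after SiREV1#2. All SiREV1#1 libraries lay below all others. The log2 difference from Scramble was −0.99 (SE 0.21, adjusted p = 0.0746), and adjusted p was 0.0128 with the replicate block. ATP5PB, subunit b of the peripheral stalk that holds the catalytic head still (chr1:111448864-111462773, plus strand), was at 75.76, 67.46 and 71.99 FPKM in Scramble, 53.02, 35.97 and 35.9 after SiREV1#1 and 80.1, 72.87 and 75.03 after SiREV1#2. Here too the SiREV1#1 libraries lay below all others, with replicate 1 nearest to them. Its log2 difference was −0.79 (SE 0.18, adjusted p = 0.0827), and adjusted p was 0.00437 with the replicate block. WDR77, opposite to ATP5PB, was at 19.68, 9.83 and 9.58 FPKM in Scramble and 9.51, 5.52 and 5.96 after SiREV1#1, so it lay lower in each same-numbered pair. The catalytic subunits ATP5F1A (−0.02), ATP5F1B (−0.09) and the gamma subunit ATP5F1C (0.17) did not pass, and the highest difference was that of the c-ring gene ATP5MC2 (0.36).

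COX7B, a small subunit of complex IV, had that complex's lowest difference. Its FPKM was 601.4, 465.65 and 482.74 in Scramble, 559, 335.75 and 315.94 after SiREV1#1 and 664.42, 537.58 and 519.32 after SiREV1#2. Within each replicate number the SiREV1#1 library was the lowest, but replicate 1 of SiREV1#1 exceeded replicates 2 and 3 of Scramble. The log2 difference was −0.40 and did not pass, with the block (adjusted p = 0.0693) or without it (0.626). The highest in complex IV was COX6A1 (0.24), and the nuclear-encoded subunits COX4I1 (0.02), COX5A (0.21) and COX5B (0.14) did not pass either.

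**Figure D3:**
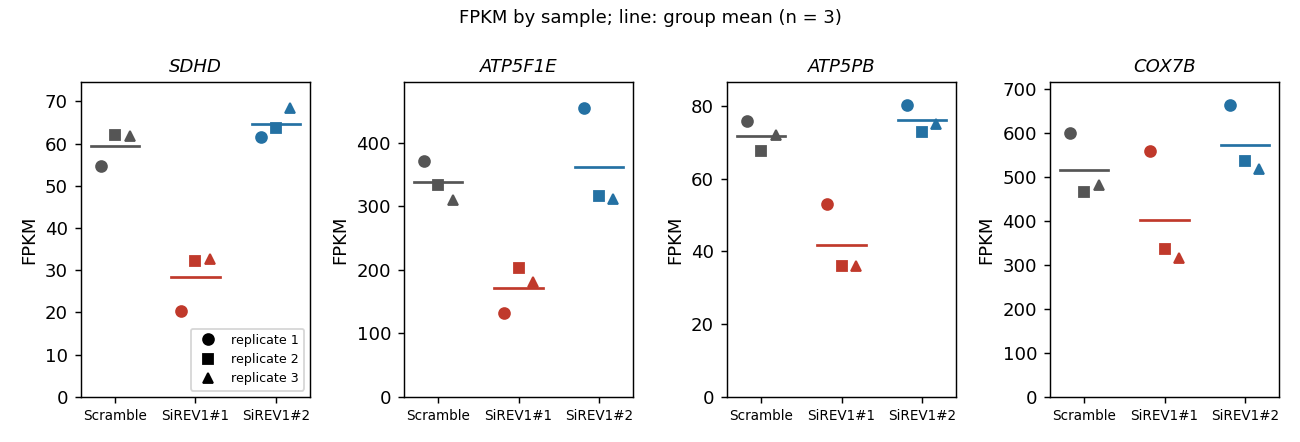
FPKM of SDHD, ATP5F1E, ATP5PB and COX7B in each library by group, with replicate numbers as symbols, a line for the mean of 3 libraries and axes from 0. For SDHD, ATP5F1E and ATP5PB the 3 SiREV1#1 libraries lie below all others (SDHD 20.27 to 32.64 against 54.71 to 68.54), and for COX7B the groups overlap.

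Complexes I and III held differences in both directions. NDUFA3, a small subunit of the membrane arm of complex I, was at 219.56, 173.65 and 137.76 FPKM in Scramble, 331.68, 207.58 and 204.31 after SiREV1#1 and 262.19, 151.34 and 148.78 after SiREV1#2, the highest in SiREV1#1 for every replicate number. Its log2 difference was 0.47 (adjusted p = 0.658), and it passed with the replicate block (0.0272), as did the complex III subunits UQCR10 (0.36, adjusted p = 0.0351) and UQCRB (0.34, 0.0392). NDUFB6 had the lowest difference in complex I (−0.34) and the core protein UQCRC2 in complex III (−0.40), and neither passed. Among the core subunits of complex I that are named here, which carry the flavin and the iron-sulfur clusters or line the path to ubiquinone, differences ran from −0.22 (NDUFS3) to 0.16 (NDUFS8). NDUFS1 (−0.17), NDUFS7 (−0.03), NDUFV1 (0.01) and NDUFV2 (−0.07) lay between them. In complex III, UQCRC1 (−0.09) and UQCRFS1 (−0.11) did not pass.

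Promoters are shown for the 3 members that differed between the siRNAs and, for contrast within complex II, for SDHB, which did not. They run from 250 bases before to 50 bases after the start of each gene (RefSeq, GRCh38.p14), and capitals mark matches, on either strand, to 4 words: GCATGCG (core of the NRF1 motif), CCGGAAG (ETS), AGATGGC (YY1) and AAGGTCA (ERR). NRF1, GABP of the ETS family, YY1 and ERR-alpha are known regulators of nuclear genes for mitochondrial proteins. The windows are chr11:112086623-112086922 on the plus strand for SDHD, chr1:17053983-17054282 on the minus strand for SDHB, chr20:59032286-59032585 on the minus strand for ATP5F1E and chr1:111449214-111449513 on the plus strand for ATP5PB.
SDHD: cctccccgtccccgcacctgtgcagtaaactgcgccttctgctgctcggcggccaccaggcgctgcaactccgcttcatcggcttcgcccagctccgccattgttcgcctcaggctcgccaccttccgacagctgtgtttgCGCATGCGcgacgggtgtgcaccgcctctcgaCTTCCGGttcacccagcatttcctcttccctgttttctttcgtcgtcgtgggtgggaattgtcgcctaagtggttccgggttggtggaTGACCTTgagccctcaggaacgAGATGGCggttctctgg
SDHB: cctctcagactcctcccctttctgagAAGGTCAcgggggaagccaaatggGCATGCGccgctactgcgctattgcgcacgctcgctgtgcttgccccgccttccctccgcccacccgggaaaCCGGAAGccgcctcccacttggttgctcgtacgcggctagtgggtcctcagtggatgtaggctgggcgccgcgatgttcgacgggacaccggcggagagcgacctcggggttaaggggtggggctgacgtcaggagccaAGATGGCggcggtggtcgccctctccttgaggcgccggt
ATP5F1E: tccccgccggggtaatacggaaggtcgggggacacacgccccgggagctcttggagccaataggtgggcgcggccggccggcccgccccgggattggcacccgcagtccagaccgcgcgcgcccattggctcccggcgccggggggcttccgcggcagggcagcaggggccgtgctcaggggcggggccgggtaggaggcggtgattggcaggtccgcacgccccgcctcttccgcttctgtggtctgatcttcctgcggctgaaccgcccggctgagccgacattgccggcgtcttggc
ATP5PB: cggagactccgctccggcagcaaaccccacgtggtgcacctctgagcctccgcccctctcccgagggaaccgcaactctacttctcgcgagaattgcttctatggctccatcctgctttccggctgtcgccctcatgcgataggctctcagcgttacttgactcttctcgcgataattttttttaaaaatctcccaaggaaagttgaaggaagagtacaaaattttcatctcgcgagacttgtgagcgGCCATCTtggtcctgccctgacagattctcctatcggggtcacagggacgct
In SDHD the NRF1 word matched on both strands, in overlapping letters. SDHD and SDHB held all 4 words, ATP5PB held the YY1 word and ATP5F1E held none of these letters. Over the 71 members with a promoter in the table, the NRF1 word was present in 18.3% (4.13% of all 27305 promoters), the ETS word in 28.2% (10.7%), the YY1 word in 16.9% (5.61%) and the ERR word in 12.7% (3.97%). A match is a run of letters and not a bound site.

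A short siRNA can also pair with other transcripts through bases 2 to 8 of its guide strand, its seed, as a miRNA does, and the word complementary to it was looked for in annotated transcripts. For SiREV1#1 the word is CAGGAAT, and it was present in the 3′ UTR of 6 of 81 members (7.41%) against 15.6% of 11288 genes. The members' 3′ UTRs were shorter, with a median of 451 bases against 1350.5. For SiREV1#2 the word is GGACGAC, present in 1 of 81 members, NDUFA6 (1.23%), and in 1.25% of all genes. The word for SiREV1#1 was not found in the 3′ UTR of SDHD, ATP5PB or COX7B. In ATP5F1E it was found in 1 of 3 coding transcripts, ATP5F1E-201, of 3665 bases. The counts and FPKM of this gene imply a length of 410 bases. NDUFA9, NDUFV3 and NDUFS6 held it in 1 of 3, 1 of 2 and 1 of 2 coding transcripts. Those transcripts had 8363, 4676 and 1082 bases, against implied lengths of 1602, 1526 and 519. UQCRC2 and UQCRB held it in 1 of 5 and 1 of 4, of 2615 and 5575 bases, against 2215 and 4884. Which transcripts were present was not tested. The 6 members with the word lay on both sides of Scramble. By limma over the 9 libraries none of them passed against Scramble without the replicate block. ATP5F1E was called lower after SiREV1#1 with the block, and against SiREV1#2 with and without it. ATP5F1E (log2 difference −0.99), UQCRC2 (−0.40) and NDUFA9 (−0.29, adjusted p = 0.803) had lower levels after SiREV1#1, NDUFA9 not in every same-numbered pair. UQCRB (0.34), NDUFV3 (0.19) and NDUFS6 (0.04) lay above Scramble in 3 of 3 pairs. UQCRB held 2 copies of the word, was at 49.31, 38.81 and 37.1 FPKM in Scramble and 65.55, 46.56 and 47.39 after SiREV1#1, and was the one called higher with the replicate block. The sites of the members other than UQCRB, lower and higher, are shown with 10 bases on each side and the word in capitals.
ATP5F1E-201, bases 1557 to 1563: ttacagggaaCAGGAATaaatgaatca
UQCRC2-201, bases 2389 to 2395: ttaaaggagaCAGGAATataattattg
NDUFA9-201, bases 2754 to 2760: aaggagggccCAGGAATtttagtttta
NDUFV3-201, bases 1707 to 1713: aaaaaaggaaCAGGAATgttactaatt
NDUFS6-201, bases 710 to 716: acgtgggctgCAGGAATgggcgggggg
NDUFA9, NDUFV3 and NDUFS6 are named because they hold the word.

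Within same-numbered replicates the subunit genes split by replicate number. After SiREV1#1, 25 of 81 members were above Scramble in replicate 1, 69 in replicate 2 and 72 in replicate 3. The median log2 ratio was −0.26, 0.17 and 0.24, against −0.18, −0.03 and −0.02 over all genes. There were 17 members higher in 3 of 3 pairs, which 19.6% of all genes were, and 5 were lower in 3 of 3 pairs, which 35.5% of all genes were. The 5 were SDHD, UQCRC2, COX7B, ATP5F1E and ATP5PB. The split ran through every complex: complex I had 11, 31 and 36 of 37 members above Scramble in replicates 1, 2 and 3, complex II had 0, 3 and 3 of 4, complex III 2, 7 and 7 of 8, complex IV 4, 11 and 11 of 12, and complex V 6, 14 and 13 of 17.

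**Figure D4:**
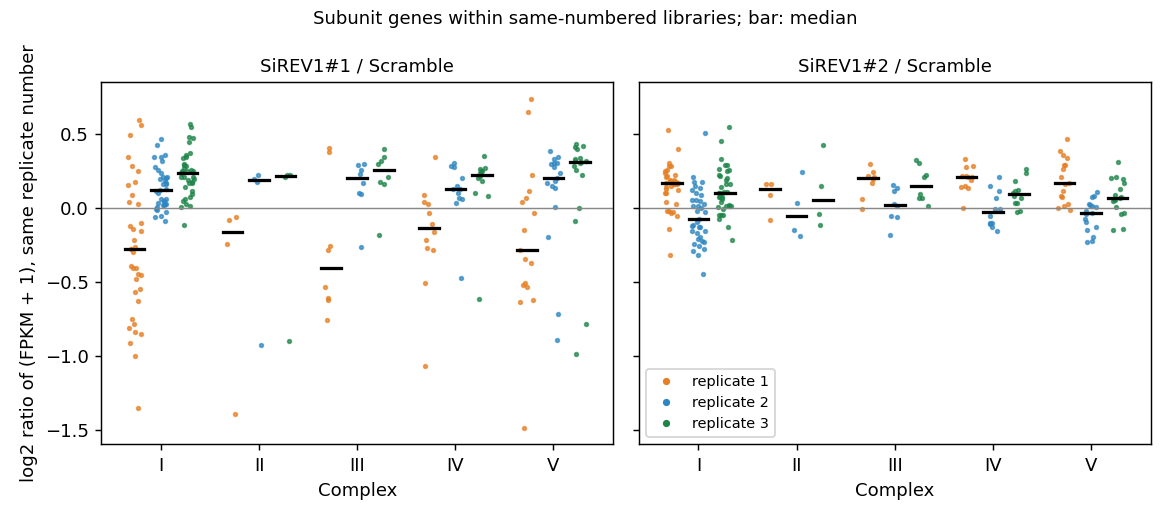
Log2 ratio of FPKM + 1 to Scramble of the same replicate number for each tested member, by complex, for SiREV1#1 (left) and SiREV1#2 (right), with colours for replicate numbers and a bar for each median. After SiREV1#1 the medians lie below 0 in replicate 1 and above 0 in replicates 2 and 3 for every complex.

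With replicates 2 and 3 only, which leave 2 libraries a group, 49 of 81 members rose after SiREV1#1, against 25.8% of all genes, and 5 fell, against 30.5%. The 49 were 18 of 37 in complex I, 3 of 4 in complex II, 6 of 8 in complex III, 8 of 12 in complex IV, 13 of 17 in complex V and 1 outside the complexes, and the 5 that fell were SDHD, UQCRC2, COX7B, ATP5F1E and ATP5PB. The differences were small, with a median of 0.19 over the members and −0.02 over all genes. Libraries numbered 2 and 3 lay close together.

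The second comparison was SiREV1#2 against Scramble, which shares the Scramble libraries with the first. No subunit gene passed: 0 of 81 members were called by limma, against 0.577% of all genes, and 0 with the replicate block, against 11.3%. At an unadjusted p under 0.05 there were 0 members, and 2 with the block, SDHC and UQCR10. On counts, edgeR called 0 of all 14205 genes, so its 0 members say nothing of the members. DESeq2 called 0 of 84 members, against 215 of 14205 genes. The median log2 difference was 0.07 over the members and 0.00 over all genes.

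The extremes of SiREV1#2 were small. NDUFC1, a small membrane subunit of complex I, was at 61.94, 64.34 and 63.04 FPKM in Scramble and 89.71, 91.92 and 92.77 after SiREV1#2, so the groups did not overlap, with a log2 difference of 0.53 (adjusted p = 0.771). After SiREV1#1 it was at 33.98, 81.85 and 76.97. The other highest values were SDHC (0.28), UQCR10 (0.25), NDUFA4 (0.22) and ATP5MPL (0.19), and the lowest were NDUFB10 (−0.14), SDHA (−0.13), UQCRC2 (−0.02), COX8A (0.02) and ATP5F1B (−0.13). The SiREV1#2 to Scramble ratio of SDHD was 1.12, 1.02 and 1.11 in replicates 1, 2 and 3.

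In same-numbered pairs, 70, 35 and 64 of 81 members were above Scramble after SiREV1#2 in replicates 1, 2 and 3, with medians of 0.17, −0.04 and 0.08. In 3 of 3 pairs 28 members were higher, against 25.9% of all genes, and 3 were lower, against 29.7%. With replicates 2 and 3 only, 16 members rose, against 28.2% of all genes, and 7 fell, against 26.8%. The 7 were NDUFA8, NDUFB10 and NDUFS3 in complex I, SDHA in complex II, the catalytic ATP5F1A and ATP5F1B in complex V, and NDUFA4L2.

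Set directly against SiREV1#2, SiREV1#1 gave lower levels of 3 subunit genes. These were SDHD, with a log2 difference of −1.19 (SE 0.20, adjusted p = 0.0146), ATP5F1E, with −1.07 (SE 0.21, 0.0278), and ATP5PB, with −0.88 (SE 0.18, 0.029). The 3 of 81 members called compare with 5.21% of all genes, 2.97% lower and 2.24% higher. With the replicate block 6 members were called, against 36.5%: those 3 (adjusted p = 0.000604, 0.00545 and 0.0015), COX7B (−0.55, 0.0138), and, higher, NDUFA3 (0.42, 0.0267) and ATP5IF1 (0.30, 0.0457). The call of ATP5PB was lost with TMM-scaled FPKM (adjusted p = 0.078). EdgeR on counts called none of the 3 (0.0721 to 0.237), and 96 of all 14205 genes. DESeq2 on counts called 3 of 84 members, all lower, against 887 of 14205 genes. EdgeR with the replicate block called 4 of 84, all lower, against 2503 genes. Leaving out SiREV1#2 replicate 2 or 3 left 0 called, against 137 and 131 of all 11429 genes. Leaving out Scramble replicate 2 or 3, or SiREV1#1 replicate 2 or 3, left 1, SDHD, against 150 to 326 genes.

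Between the siRNAs 13 members were higher after SiREV1#1 in 3 of 3 pairs, against 24.1% of all genes, and 12 were lower, against 35.6%. With replicates 2 and 3 only, 44 members were higher after SiREV1#1, against 32.8% of all genes, and 9 were lower, against 37.3%. The 9 were NDUFA5, NDUFC1, SDHD, UQCRC2, COX6C, COX7B, ATP5F1E, ATP5MF and ATP5PB.

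The next comparison set the libraries numbered 1 against those numbered 2 and 3 across the groups. This split was proposed with earlier results of these data known, so its tests describe size against spread. Among the subunit genes 28 of 81 were called, against 69.4% of all genes: 22 were higher in replicate 1, against 28.8%, and 6 were lower, against 40.6%. With TMM-scaled FPKM, which moved the median of all genes from −0.11 to 0.00, 34 members were higher, against 34.9%, and 4 were lower, against 34.8%. The members' median was 0.07, and 0.20 with that scaling. Without SiREV1#1 replicate 1, 52 members were called, 47 higher and 5 lower. Of all 11429 genes, 3952 were then higher and 4740 lower.

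Complex I held the largest shifts, 11 members higher and 4 lower in replicate 1. NDUFS3, a core subunit near the ubiquinone site, was at 75.27, 23.04 and 21.1 FPKM in Scramble replicates 1, 2 and 3, 39.61, 23.62 and 24.62 after SiREV1#1 and 93.05, 19.33 and 19.28 after SiREV1#2. The 3 libraries numbered 1 lay above all 6 others (log2 difference 1.54, SE 0.22, adjusted p = 0.000222). NDUFB10, in the membrane arm, was at 196.84, 98.85 and 88.79 FPKM, 240.18, 92.97 and 90.62, and 230.53, 72.45 and 76.34 in the same order, again without overlap (1.35, SE 0.11, 4.93e-06). The accessory subunit NDUFV3 (1.03, SE 0.08, 5.78e-06) was at 28.31 to 32.99 FPKM in replicate 1 and 12.17 to 16.22 in the others. NDUFV2, a core iron-sulfur subunit at the NADH end (0.79, SE 0.15, 0.00103), was at 86.84 to 145 and at 62.37 to 75.5, and neither gene overlapped. NDUFS3 shares 18.03% of its 50-base words with other genes, mostly the same-strand neighbour PTPMT1, and NDUFV2 shares 26.99%, while NDUFB10 shares none, so the first pair is uncertain to that extent.

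In complex I 4 members were lower in replicate 1: NDUFS4 (−0.55), the core subunit NDUFS1 (−0.43), NDUFA5 (−0.38) and NDUFA6 (−0.24). NDUFS1 was at 46.75, 51.86 and 54.23 FPKM in Scramble, 31.19, 53.72 and 54.66 after SiREV1#1 and 45.74, 58.72 and 57.2 after SiREV1#2, lower in replicate 1 in each group. In complex II SDHD was lower (−0.31), and outside the complexes NDUFA4L2 was (−0.91). SDHD and NDUFA6 did not pass with TMM-scaled FPKM.

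Complex V had 8 of 17 members higher in replicate 1 and 0 lower. They included the stator and membrane subunits ATP5MF (0.55), ATP5PF (0.42), ATP5MPL (0.29) and ATP5PB (0.26), the delta subunit ATP5F1D (0.39), and all of the c-ring genes ATP5MC1 (0.44), ATP5MC2 (0.28) and ATP5MC3 (0.43), which encode the same mature subunit. The catalytic ATP5F1A (0.20), ATP5F1B (−0.04) and ATP5F1C (0.19) did not pass. Complex IV had COX7B (0.48) and COX6B1 (0.31) higher, and complex III had UQCRB (0.40).

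Within single groups the direction differed. In Scramble 37 members were higher in replicate 1, against 33.7% of all genes, and 4 lower, against 39.6%. After SiREV1#2, 54 were higher, against 34.9%, and 3 lower, against 43.3%. After SiREV1#1, 16 were higher, against 28.3%, and 46 lower, against 48.5%. The medians were 0.14, 0.32 and −0.23 over the members, and −0.04, −0.08 and −0.20 over all genes. In these fits replicate 1 of a group is 1 library, assumed to vary like replicates 2 and 3.

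**Figure D5:**
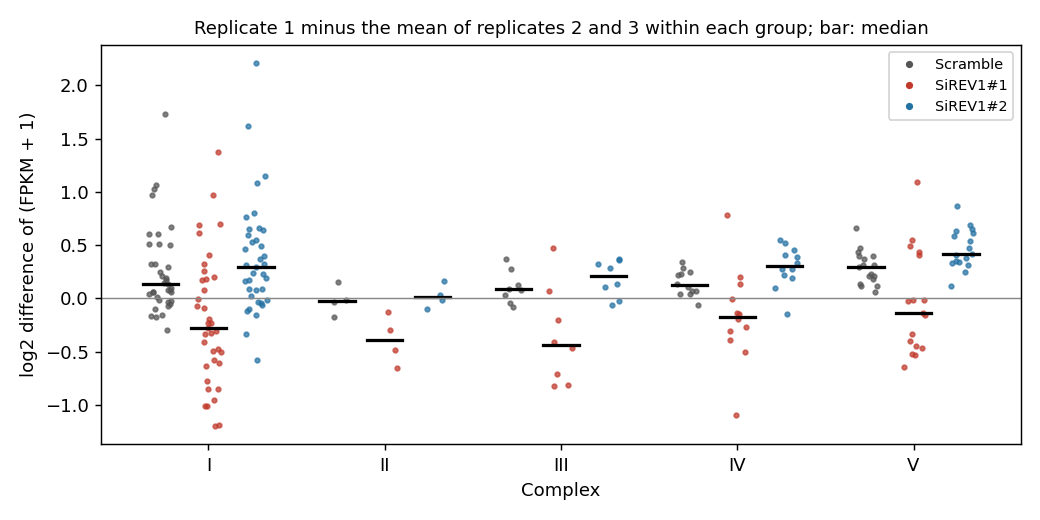
Log2 difference of FPKM + 1 between replicate 1 and the mean of replicates 2 and 3 within each group, for each tested member by complex, with colours for groups and a bar for each median. For complex V the medians are 0.29 in Scramble, −0.14 after SiREV1#1 and 0.42 after SiREV1#2, and the 2 highest points in complex I are NDUFS3 in SiREV1#2 (2.21) and Scramble (1.73).

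By complex, the counts of members higher and lower in replicate 1 after SiREV1#1 were 9 and 21 of 37 in complex I, 0 and 3 of 4 in complex II, 1 and 6 of 8 in complex III, 1 and 7 of 12 in complex IV and 5 and 8 of 17 in complex V. After SiREV1#2 they were 21 and 2, 1 and 0, 5 and 0, 10 and 0, and 16 and 0. In Scramble they were 16 and 2, 0 and 1, 2 and 0, 6 and 0, and 13 and 0.

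The difference between these shifts was tested as an interaction, the change after an siRNA in replicate 1 minus that in replicates 2 and 3. For SiREV1#1, 58 of 81 members differed, against 46.3% of all genes: 51 were lower in replicate 1, against 31.0%, and 7 were higher, against 15.2%. The median was −0.44 over the members and −0.14 over all genes. With TMM-scaled FPKM, 41 were lower and 9 higher, while over all genes the split went from 1740 higher and 3546 lower to 2619 higher and 2357 lower. SiREV1#1 replicate 1, on which this rests, had the lowest total count, 13059082, and its part in the result was not tested.

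All 4 members of complex II were lower in this sense (SDHB at −0.28, and at −0.11 without passing when FPKM was TMM-scaled), as were 23 of 37 in complex I, 6 of 8 in complex III, 7 of 12 in complex IV and 11 of 17 in complex V. Of the 17 core subunits of complexes I, II, III and V 16 were lower, the exception being NDUFS8 (0.13). Complex IV has its core encoded in mitochondrial DNA, and of its nuclear-encoded subunits COX4I1 and COX5A were lower, while COX5B did not pass (−0.07, and 0.10 with TMM-scaled FPKM). NDUFB6, in the membrane arm of complex I, had the lowest value: its FPKM was 56.03, 40.62 and 37.63 in Scramble, 21.41, 44.52 and 43.62 after SiREV1#1, and 55.17, 44.37 and 44.14 after SiREV1#2 (−1.52, SE 0.09, adjusted p = 6.42e-06). NDUFA4 of complex IV was at 98.63, 96.98 and 86.17 FPKM, 46.66, 101.95 and 99.41, and 124.3, 101.85 and 103.48 in the same order (−1.20, adjusted p = 2.72e-05). In both genes 1 library, SiREV1#1 replicate 1, lay below all others. The lowest values elsewhere were UQCRQ (−0.90) in complex III, ATP5F1A (−0.90) in complex V and SDHD (−0.48) in complex II.

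ATP5MF, subunit f of the ATP synthase membrane part, ran the other way. It was at 472.43, 428.61 and 388.12 FPKM in Scramble, 788.62, 374.31 and 365.66 after SiREV1#1 and 568.29, 453.2 and 448.09 after SiREV1#2 (0.88, adjusted p = 9.87e-05), with SiREV1#1 replicate 1 the highest library. NDUFA11 (0.49) and COX7B (0.44) were the highest in complexes I and IV.

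For SiREV1#2 the interaction was called in 7 of 81 members, against 21.5% of all genes. Of these, 6 were higher in replicate 1, against 8.99%, and 1 was lower, against 12.5%. The 6 were NDUFB10 (0.56, adjusted p = 0.00598), NDUFS3 (0.49), ATP5F1D (0.56, 0.0117), ATP5PD (0.29), ATP5MPL (0.29) and COX5B (0.35, 0.0303), and the 1 was NDUFA5 (−0.42, 0.0223). None of these calls held without the filter on low values. The members' median was 0.12, and 0.17 with TMM-scaled FPKM, against −0.04 and 0.00 over all genes.

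Other genes of the pathway were taken from 3 lists. Among 52 assembly factors, which build the complexes and are not part of them, 1 fell after SiREV1#1 and 0 rose, with a median log2 difference of −0.18. Over all genes 1.19% fell and 0.175% rose. It was COA1, a complex I and IV assembly factor, at 56.29, 59.86 and 54.2 FPKM in Scramble, 23.51, 31.61 and 31.38 after SiREV1#1 and 48.46, 49.25 and 49.76 after SiREV1#2 (−0.96, adjusted p = 0.0251), and no SiREV1#1 library overlapped the others. Among 17 regulators of mitochondrial genes 1 fell, MTERF1, which binds mitochondrial DNA and ends transcription, at 6.02, 5.25 and 5.32 FPKM, 2.58, 2.45 and 2.72, and 6.3, 6.11 and 5.57 (−0.86, adjusted p = 0.0191). Of 16 electron carriers and ubiquinone synthesis genes 0 passed. With the replicate block the 3 lists had 3, 5 and 1 genes lower and 1, 1 and 0 higher, against 13.4% lower and 6.26% higher over all genes. EdgeR on counts kept neither COA1 (adjusted p = 0.179) nor MTERF1 (0.112).

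TFAM, which packages mitochondrial DNA and starts its transcription, was at 30.81, 41.93 and 46.24 FPKM in Scramble, 12.58, 25.12 and 24.88 after SiREV1#1 and 28.81, 49.02 and 51.58 after SiREV1#2. The SiREV1#1 libraries lay below all others, and the log2 difference of −0.94 passed with the replicate block (adjusted p = 0.00176) and not without it (0.258). CYC1, cytochrome c1 of complex III, which the symbol rule does not take, was at 262.51, 266.62 and 232.1 FPKM, 235.76, 172.17 and 155.37, and 327.7, 270.06 and 281.75, and likewise passed with the block only (−0.45, 0.0405). Both were chosen after their values were seen. Against SiREV1#2, 1 gene of each list was lower after SiREV1#1: COA1 (−0.76), MTERF1 (−0.96) and PDSS2 (−0.61), an enzyme of the ubiquinone side chain, against 2.97% of all genes. After SiREV1#2 against Scramble 0 genes of the 3 lists passed, and with the block 3, 1 and 0 were lower, against 7.49% of all genes, and 1, 0 and 1 higher, against 3.81%.

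In replicate 1 against replicates 2 and 3, 12 assembly factors were higher and 6 lower, 5 electron carriers were higher and 5 lower, and 1 regulator was higher (POLRMT, the mitochondrial RNA polymerase, 0.68) and 10 lower, among them GABPB1 (−1.30), a subunit of GABP. Over all genes 28.8% were higher and 40.6% lower. The regulators' median was −0.34, against 0.07 for the subunit genes. In the SiREV1#1 interaction the median of the subunit genes, −0.44, lay below those of 83 cytosolic ribosomal protein genes (−0.26) and 78 mitochondrial ribosomal protein genes (−0.30) and above that of 37 proteasome subunit genes (−0.59). The members' transcripts were short, with a median implied length of 781 bases against 2928 over all genes, and in replicate 1 the median log2 difference of all genes up to 800 bases was −0.05, against −0.22 above 5000. In the SiREV1#1 interaction the medians of all genes were −0.24 up to 800 bases and −0.09 above 5000. The 44 members up to 800 bases had a median of −0.33. For 800 to 2000 bases it was −0.55 over 25 members and −0.21 over all genes. The part of length in the subunit genes' differences was not tested.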

How the data were processed

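RNA of 9 A549 libraries was measured by poly(A)-selected RNA sequencing on BGISEQ-500. For each library the authors deposited FPKM values and expected counts (estimated counts, not normalized) for 18143 genes. The submitters' processing notes name hg38 and StringTie 1.3.3b, and the aligner and strandedness are not given in the sources used here. In the deposited files, 1 count column, that of SiREV1#2 replicate 3, repeats the expected counts of replicate 2 and was not used, so fits on counts hold 8 libraries. Groups and replicate numbers come from the labels.

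FPKM was tested with limma 3.58.1 (limma-trend) on log2(FPKM + 1) in R 4.3.3, in 1 fit of the 3 groups over 11429 genes with a mean above 1 FPKM, and p-values were adjusted over these genes by the Benjamini-Hochberg method (threshold 0.05). Differences on this scale understate those of low genes. Replicate 1 was compared with replicates 2 and 3 in a fit with group as covariate, and its interaction with group was fitted with 3 residual degrees of freedom. Alternatives were a replicate block, log2(FPKM + 0.1), no filter, TMM-scaled FPKM, edgeR 4.0.16 (with and without the block) and DESeq2 1.42.0 on rounded expected counts, only the 2 groups compared, replicates 2 and 3 only, each group alone, and leaving out each library. The interaction's alternatives were chosen after seeing the data.

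Libraries of the same number deviated together from the group means, with correlations of 0.73 to 0.93 (9 pairs), and the replicate numbers were taken to pair the libraries. Between different numbers the correlations ran from −0.92 to 0.91, and those of the differences between replicates 2 and 3 from −0.22 to 0.18. Of the 9 libraries, 5 had their best match in another group at the same number. These values set replicate 1 apart and show no pairing of replicates 2 and 3 by number. The replicate block and the counts in 3 of 3 pairs therefore rest on the numbers in the labels. The limma and edgeR fits of the 3 groups were run on simulated data for SiREV1#1 against Scramble, with independent noise and no shift of replicate 1. The replicate block, replicate 1, interaction and DESeq2 fits were not simulated. The family, gene lists and the split by replicate number were chosen with earlier results of these data known. Named genes are the catalytic or core subunits, with COX4I1, COX5A and COX5B for complex IV (except a value not reported here), members past the threshold between groups, the extremes of each complex in each comparison, and isoform partners, and other members named were chosen after their values were seen. Positions are those of GENCODE 29 on GRCh38, since the files hold none, and siRNA seeds follow the study's methods. Python 3.11.15, numpy 2.4.6, pandas 2.3.3 and matplotlib 3.10.9 were used for the rest. The study's other experiments were not analysed here.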

Additional observations from a re-analysis of the deposited data

Results flagged for a closer look

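Effects that differed between the 2 siRNAs, by the test of SiREV1#1 against SiREV1#2 itself, came to 3 of 81 members, against 5.21% of all genes. EdgeR on counts called 0 members (96 of 14205 genes), as did the fits without SiREV1#2 replicate 2 (137 of 11429) or 3 (131). DESeq2 on counts called 3 of 84 members (887 of 14205 genes). The 3 of the main test were SDHD (log2 difference −1.19), ATP5F1E (−1.07) and ATP5PB (−0.88). In each, all 3 SiREV1#1 libraries lay below all 3 SiREV1#2 libraries.

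Effects of SiREV1#1 that differed between replicate 1 and replicates 2 and 3, by the interaction test, came to 58 of 81 members, against 46.3% of all genes. Those lower in replicate 1 included NDUFB6 (−1.52), NDUFA4 (−1.20), ATP5F1A (−0.90), UQCRQ (−0.90), SDHD (−0.48) and SDHB (−0.28), and those higher included ATP5MF (0.88), NDUFA11 (0.49) and COX7B (0.44). For SiREV1#2 the same test gave 7 members, against 21.5% of all genes, among them NDUFB10 (0.56), ATP5F1D (0.56), COX5B (0.35) and NDUFA5 (−0.42). Each interaction rests on 1 library numbered 1 per group. The change of SDHD after SiREV1#1 differed in size between replicate numbers and was toward lower levels in all 3, while NDUFB6 and NDUFA4 were below Scramble in replicate 1 and above it in replicates 2 and 3.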

How the results depend on the processing

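The counts of members called moved with the model and the libraries used, and so did those of all genes. With replicates 2 and 3 only, 6438 of 11429 genes were called for SiREV1#1 against Scramble. The same setting called 8004 for SiREV1#1 against SiREV1#2 and 6282 for SiREV1#2 against Scramble. Within SiREV1#1 and within SiREV1#2, where replicate 1 is 1 library, most of all genes tested were called too. High counts in these settings were therefore not particular to the members. For SiREV1#1 against Scramble, 1 of 81 was called, against 156 of 11429 genes. The count was 0 in edgeR on counts (42 of 14205 genes), without the filter (107 of 18123) and with only the 2 groups (41 of 11429). DESeq2 called 2 of 84 members (582 of 14205 genes), and edgeR with the replicate block 5 of 84 (1744). The count was 6 with the replicate block (2249 of 11429), 54 with replicates 2 and 3 only (6438), and 0 to 2 without 1 library (27 to 276). For SiREV1#1 against SiREV1#2, 3 were called (595 of 11429 genes), against 0 in edgeR (96 of 14205) and with only the 2 groups (138 of 11429). DESeq2 called 3 of 84 members, all lower (887 of 14205 genes), and edgeR with the replicate block 4 of 84, all lower (2503). The count was 6 with the block (4167 of 11429), 53 with replicates 2 and 3 only (8004), and 0 to 4 without 1 library (131 to 1179). For SiREV1#2 against Scramble, 0 were called (66 of 11429 genes), against 23 with replicates 2 and 3 only (6282). Without 1 library the count was 0 to 1 (0 to 218 genes), and it was 1 without SiREV1#1 replicate 1 (147). For replicate 1, 28 were called, 62 within SiREV1#1, 57 within SiREV1#2 and 20 to 52 without 1 library. The SiREV1#2 interaction called 7, 12 with TMM scaling and 0 without the filter. Leaving out the 3 highest members of complex II leaves SDHC alone (log2 ratio of FPKM 0.13 after SiREV1#1 and 0.28 after SiREV1#2), which says nothing of the complex's sum. That sum's log2 ratio for replicate 1 was 0.011 with TMM scaling.

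Reversals of sign among named genes were of differences that did not pass, apart from members higher in replicate 1 overall. Within SiREV1#1 ATP5F1D (−0.020), ATP5MC3 (−0.026), ATP5MPL (−0.018) and NDUFC2 (−0.076) were lower in replicate 1. SDHC (−0.13) was lower there too, but its means over the groups were alike, 47.81 FPKM in replicate 1 and 47.85 in the others. ATP5F1B in replicate 1 was 0.014 in DESeq2, 0.0090 in edgeR, 0.088 with TMM scaling, 0.18 within Scramble, 0.35 within SiREV1#2 and −0.23 to 0.26 without 1 library. NDUFA4 was 0.11 within Scramble, 0.27 within SiREV1#2 and −0.49 to 0.19 without 1 library, and SDHC was −0.015 within SiREV1#2 and −0.073 to 0.070. After SiREV1#2, NDUFB10 was 0.30 in DESeq2, 0.29 in edgeR and −0.68 to 0.21 without 1 library. The fits on counts hold only replicates 1 and 2 of SiREV1#2, where NDUFB10 was at 230.53 and 72.45 FPKM, beside all Scramble replicates. UQCRC2 was 0.062 in DESeq2, 0.043 in edgeR, 0.041 with edgeR and the block, and −0.062 to 0.024 without 1 library. With replicates 2 and 3 only, ATP5F1E was −0.035 and COX8A −0.036 after SiREV1#2, and NDUFB6 was 0.17 after SiREV1#1. Without 1 library, ATP5F1E ran from −0.10 to 0.17, COX8A from −0.11 to 0.095 and ATP5MPL from −0.0040 to 0.29. COX5B in the SiREV1#1 interaction was 0.10 with TMM scaling. The causes were not tested. Of 763 values of 103 gene and comparison pairs under other settings, 632 kept their direction and side of the threshold, 52 lost the call, 57 gained it and 22 reversed, and of 729 without 1 library, 601, 99, 11 and 18 did. FPKM values carry no counting interval, and the lowest depth was that of SiREV1#1 replicate 1.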
